A study of Mus musculus with 18 samples.

Results

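The 10 mouse Cacna1 genes encode the alpha-1 subunits of the voltage-gated calcium channels. All 10 were taken by name and Ensembl row from a table of 32286 gene entries and were followed in all 18 libraries. No member was picked or dropped by its values, but the family was chosen with earlier results of these data known. The libraries came from mammary carcinoma cells of mice, the lines AT-3 and E0771. Each line carried pRetroX, a doxycycline-inducible retroviral vector, that was empty, held wild-type MRTFA or held Y238A MRTFA, which the labels call deficient in SRF binding. Every group, the empty vector groups included, was grown for 48 h with 2 µg/ml of doxycycline and is represented by 3 libraries, in 6 groups. The labels do not say whether the cells of a group were a pool or a clone, and they name no separate cultures, so the p-values measure only the spread between these libraries, which may be technical. MRTFA is a coactivator that actin holds back and that acts through the transcription factor SRF, and the series title asks about cell stiffness and the cytoplasmic levels of calcium and potassium.

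An alpha-1 subunit forms the pore, the voltage sensor and most drug-binding sites of a calcium channel, which opens on depolarisation and lets calcium into the cell. The Cav1 genes (Cacna1s, Cacna1c, Cacna1d, Cacna1f) encode L-type channels of muscle, endocrine cells, neurons and retina, the Cav2 genes (Cacna1a, Cacna1b, Cacna1e) encode the P/Q-, N- and R-type channels best known at nerve terminals, and the Cav3 genes (Cacna1g, Cacna1h, Cacna1i) encode T-type channels that open at more negative potentials. Cav1 and Cav2 subunits assemble with a cytoplasmic beta and an extracellular alpha2delta subunit, whereas Cav3 subunits can conduct without them. In bulk RNA, fewer cells with a transcript and less transcript per cell cannot be told apart.

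Levels are CPM, counts scaled to library size with TMM factors, given as mean ± SD with n = 3. Differences are log2 fold changes from edgeR's quasi-likelihood test, fitted to all 18 libraries and adjusted by Benjamini-Hochberg over 17841 genes. The SE after ± is the absolute log2 fold change divided by the square root of the test's F statistic. It is approximate, and can be too narrow where a group has few counts. A gene is called higher or lower, or is said to have risen or fallen, where the adjusted p is under 0.05. Library totals lay between 81265466 and 115260128 counts. Of the 143 values above 0 among the 10 genes, 113 were even numbers, as counting both mates of a pair would give, and counting intervals (95%, counting error only) would then be too narrow. Where a group had 0 counts of a gene, the fold is given as at least the ratio to 3 counts over that group. Such a bound takes the count of the other group as exact. If both mates were counted, the bound is too high, and one from few counts is weak.

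The MRTFA entry, taken as the construct, stood at 0 to 0.115 CPM in the 6 empty vector libraries, at 4385 to 7081 CPM (wild type) and 1958 to 2326 CPM (Y238A) in AT-3, and at 707 to 866 CPM and 280 to 354 CPM in E0771. Construct level thus differed between the lines and between wild type and Y238A. In a comparison of effects between lines, or of wild type with Y238A, it cannot be told apart from line or mutation. Srf, itself a known target of MRTFA, was 186 ± 6.2, 584 ± 7.7 and 92.9 ± 4.4 CPM with empty vector, wild type and Y238A in AT-3, and 162 ± 10, 376 ± 25 and 136 ± 18 CPM in E0771. Some libraries stood apart in genes typical of other groups, termed carry-over here without a test of its source. In 240 genes that AT-3 expressed and E0771 hardly did, the median share of the AT-3 level was 1.35% in replicate 2 of E0771 with empty vector, 0.508% in wild-type replicate 2 and 0.269% in Y238A replicate 1, and at most 0.0616% in the other 6 E0771 libraries. In 32 genes near 0 with empty vector in AT-3, the Y238A libraries had 1.27%, 0.264% and 0.11% of the wild-type level in replicates 1, 2 and 3. E0771 empty vector replicate 2 also lay farthest from its group mean, at a root mean square of 0.53 on the log2 scale over 12208 genes, against 0.15 to 0.36 in the other 17 libraries. Of 7 epithelial markers, Epcam, Krt8 and Krt14 reached 1 CPM in E0771, and Krt19 and Krt14 did in AT-3. With wild type Cdh1 and Krt8 did in AT-3 as well. Their summed level was 12.4 to 12.8, 46.7 to 50.1 and 76.9 to 94.8 CPM in AT-3 with empty vector, wild type and Y238A. In E0771 it was 305 to 330, 570 to 683 and 377 to 402 CPM. The part of these shifts in the Cacna1 values was not tested. Epcam did not reach 1 CPM in any AT-3 group. The 4 libraries in which that share was highest (AT-3 Y238A replicate 1 and the E0771 libraries named) are called the 4 carry-over libraries.

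**Figure D1:**
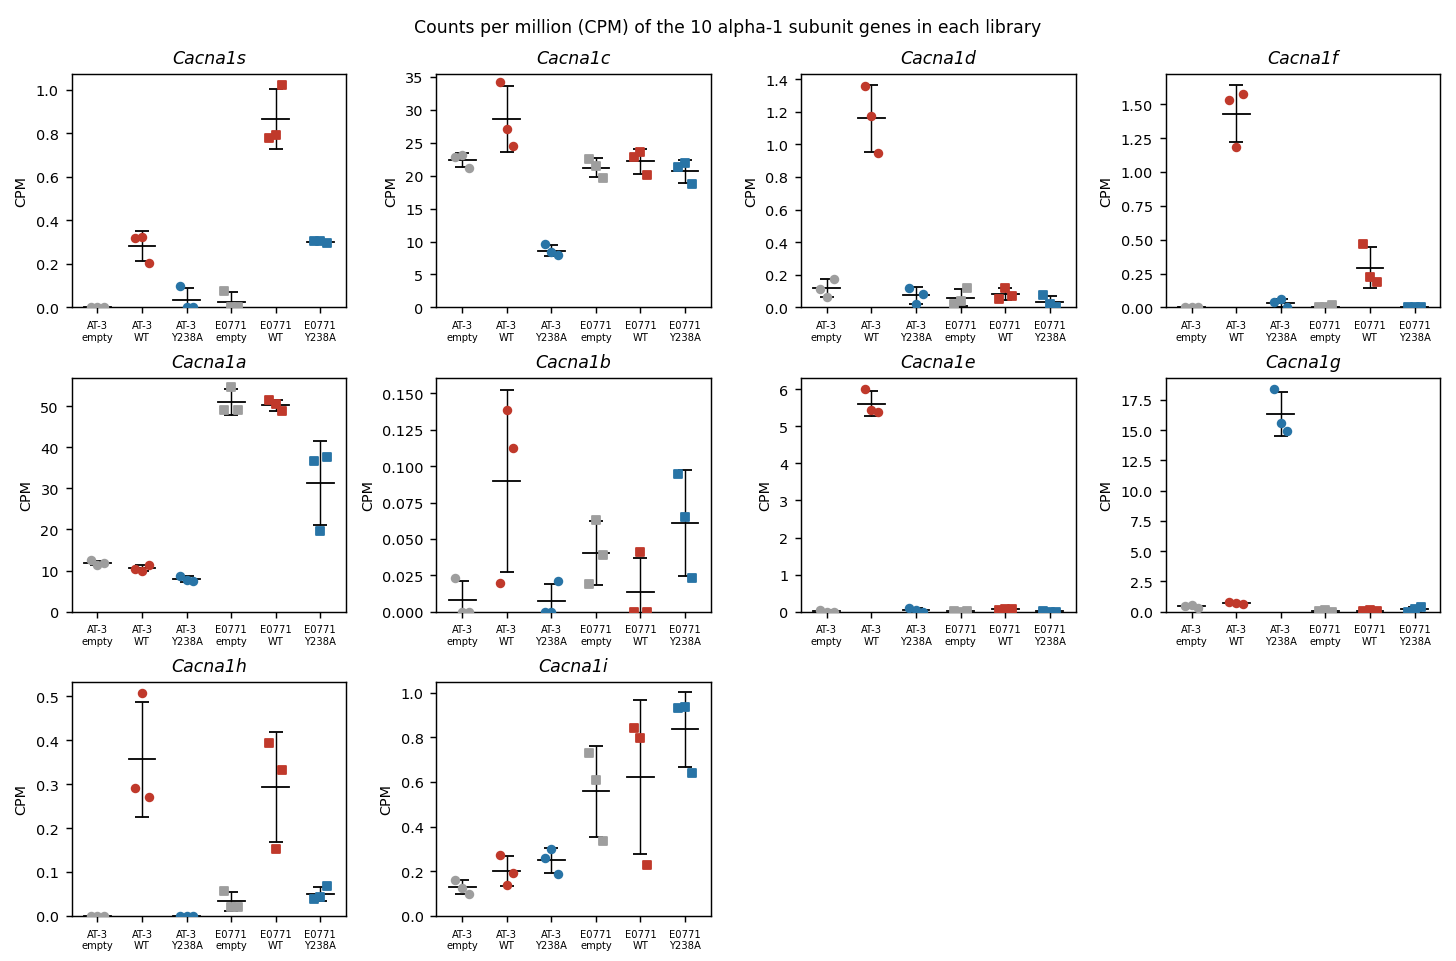
CPM (linear axes with a different range in each panel) of the 10 alpha-1 subunit genes. Points are the 3 libraries of a group (circles AT-3, squares E0771), long lines are group means and bars are SD. Cacna1a and Cacna1c were the genes above 7 CPM in all 18 libraries, Cacna1g stood at 16.3 CPM in AT-3 with Y238A alone, and Cacna1e at 5.61 CPM in AT-3 with wild type alone.

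The genes differed widely in level. Cacna1a, Cacna1c and Cacna1i had counts in all 18 libraries, Cacna1d in 17, Cacna1g in 16, Cacna1b, Cacna1e and Cacna1h in 12, Cacna1s in 11 and Cacna1f in 9. The filter on low counts, about 0.103 CPM in at least 3 libraries, kept 9 of the 10 genes and left out Cacna1b, which had 62 counts in all. Cacna1d and Cacna1e reached that level in every library of the AT-3 wild-type group alone, and Cacna1f and Cacna1h in every library of the wild-type groups of both lines and of no other group. Cacna1s reached it in 9 libraries, those of both wild-type groups and of E0771 with Y238A. Cacna1e, Cacna1f, Cacna1h and Cacna1s thus passed only through groups where they were high. Cacna1d reached it in 8 libraries, so its passing did not rest on the AT-3 wild-type group alone. Neither a count of changed members nor a median over the members is therefore evidence about the family.

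Per kilobase of exon, the make-up of the family differed between lines and constructs. In AT-3 with empty vector Cacna1c and Cacna1a led together, at 1.05 ± 0.049 and 1.04 ± 0.046 CPM per kb, and made up 48.7% and 48.2% of the summed level. With wild-type MRTFA Cacna1c led at 1.35 ± 0.24 CPM per kb, and Cacna1e (7.61%), Cacna1f (5.39%) and Cacna1d (3.14%), each at most 0.429% with empty vector, followed Cacna1a in that order. With Y238A Cacna1g led at 1.61 ± 0.18 CPM per kb and the Cav3 genes held 59.3% ± 0.32 (SD) of the summed level, against 2.65% ± 0.64 with empty vector and 4.43% ± 0.53 with wild type. In E0771 Cacna1a led under every construct, at 4.46 ± 0.27, 4.4 ± 0.11 and 2.75 ± 0.89 CPM per kb with empty vector, wild type and Y238A.

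**Figure D2:**
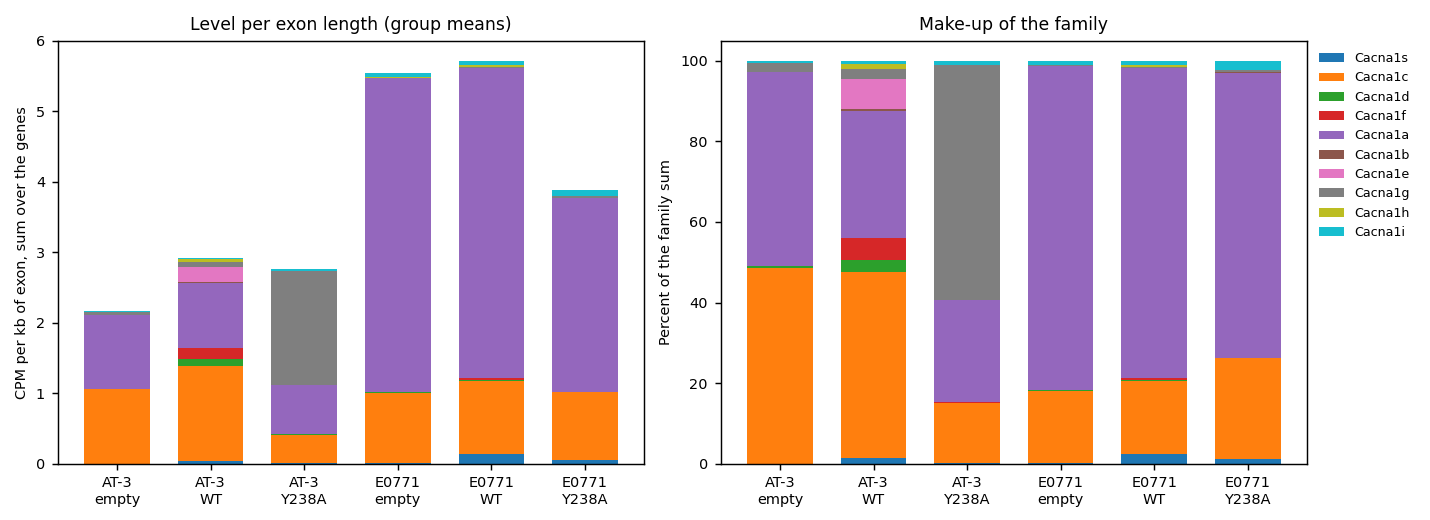
Level of the 10 genes by group, as stacked group means in CPM per kb of exon (left) and as percent of the family sum (right). The E0771 bars are mostly Cacna1a, the AT-3 empty vector bar is split between Cacna1c and Cacna1a, and Cacna1g makes up 58.4% of the AT-3 Y238A bar.

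The summed level of the 10 genes was 2.17 ± 0.077, 2.92 ± 0.27 and 2.76 ± 0.29 CPM per kb in AT-3 with empty vector, wild type and Y238A, and 5.54 ± 0.31, 5.72 ± 0.22 and 3.88 ± 0.83 CPM per kb in E0771. These sums and shares were not tested. Exon length is the union of all annotated exons of a gene in GENCODE M21, not the length of a transcript. It was 21.19 kb for Cacna1c, 25.23 kb for Cacna1e, 11.42 kb for Cacna1a and 6.55 kb for Cacna1s. Ranks and shares depend on it: without it, Cacna1c and Cacna1a stood at 22.3 and 11.9 CPM in AT-3 with empty vector. The release the authors counted against is not given in the sources used here.

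In AT-3, wild-type MRTFA raised 6 of the 9 genes tested (36.4% of all genes rose) and lowered 0 (32.2% of all genes fell). Y238A raised 2 (21.4% of all genes) and lowered 2 (22.2%). Compared with Y238A, wild type was higher in 6 genes (34.8% of all genes) and lower in 1 (31.4%). In E0771, wild type raised 3 genes (11.2% of all genes) and lowered 0 (13.3%), and Y238A raised 1 (5.41%) and lowered 1 (6.64%). There wild type was higher than Y238A in 3 genes (12.7% of all genes) and lower in 0 (13%). The median log2 fold change of the 9 genes was 3.30, 0.94 and 3.02 in AT-3 and 0.45, -0.04 and 1.24 in E0771, in the same order, beside all-gene medians of 0.07, 0.01, 0.05, -0.05, -0.01 and -0.02. The filter kept Cacna1e, Cacna1f, Cacna1h and Cacna1s only through groups where they were high. Neither these counts nor these medians are therefore evidence about the family. Within a line the comparisons share their control libraries.

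**Figure D3:**
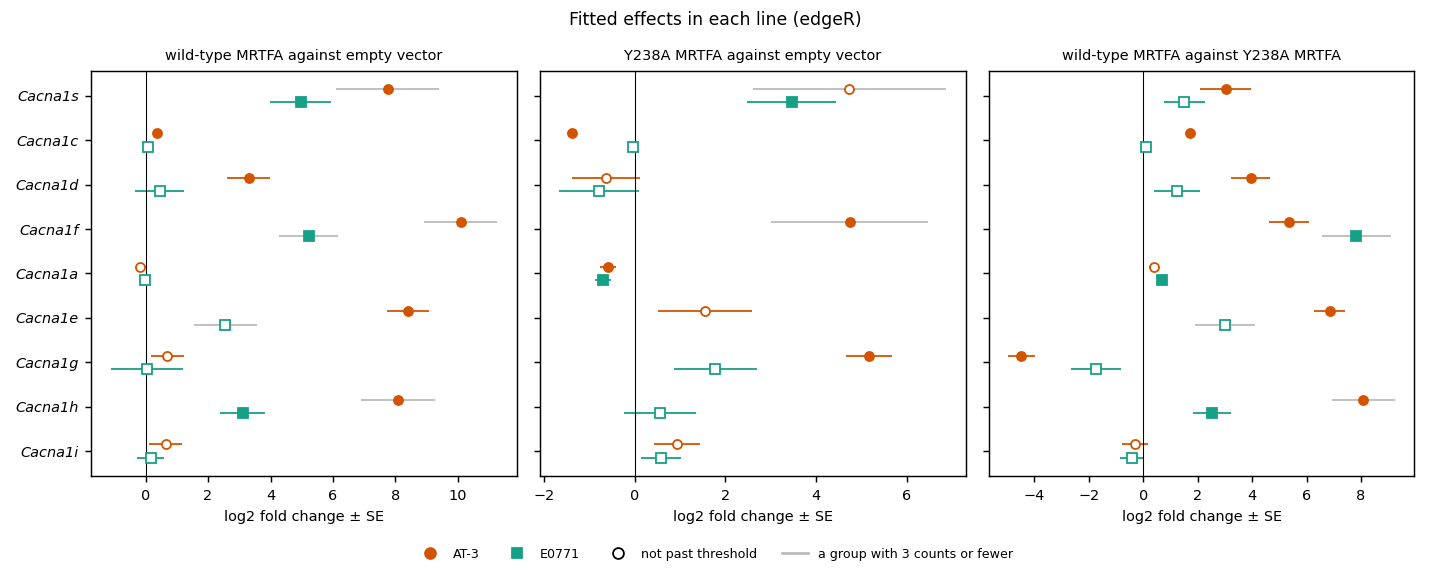
Fitted log2 fold changes ± SE of the 9 genes tested, in AT-3 (circles) and E0771 (squares), in the 3 comparisons between constructs. Filled symbols passed an adjusted p of 0.05, open symbols did not, and pale bars mark comparisons in which a group had 3 counts or fewer, whose fitted value depends on the model's prior count and is no estimate of size. Comparisons with 3 counts or fewer in both groups are not drawn.

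Cacna1s (chr1:136052750-136119822, plus strand, GRCm38) encodes the L-type pore and voltage sensor of skeletal muscle. In AT-3 it was at 0 in all 3 empty vector libraries and at 0.32, 0.323 and 0.203 CPM with wild-type MRTFA, 79 counts in all. With Y238A it had 10 counts, all in replicate 1 (0.0993 CPM), a carry-over library, whose part in this value was not tested. The AT-3 wild-type libraries lay above all others of that line.

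Wild type was at least 24.8-fold higher than empty vector in AT-3 (adjusted p = 0.000398) and 3.02 ± 0.95 higher than Y238A on the log2 scale (adjusted p = 0.00946), or at least 18.5-fold higher without Y238A replicate 1. In E0771 Cacna1s stood at 0.077, 0 and 0 CPM with empty vector, 0.78, 0.795 and 1.02 CPM with wild type and 0.304, 0.304 and 0.298 CPM with Y238A, 3 levels that did not overlap. The rise over empty vector was 4.97 ± 0.97 with wild type (adjusted p = 0.000926) and 3.46 ± 0.98 with Y238A (adjusted p = 0.0279). The Y238A call was lost without empty vector replicate 2, empty vector replicate 3 or Y238A replicate 1 (adjusted p = 0.0992, 0.0912 and 0.0521) and with the 4 carry-over libraries left out (0.0999). Without empty vector replicate 1, which held all 8 empty vector counts, wild type was at least 56.1-fold and Y238A at least 19.8-fold above empty vector. Of 4 skeletal muscle markers (Myod1, Myog, Myf5, Pax7), 0 reached 1 CPM in any group, and their summed level was at most 0.293 CPM in any library. Gm37759, an antisense gene, shares 1309 bases of exon with Cacna1s (20% of its exon length). It had 0 counts in AT-3 and 6, 2 and 6 with empty vector, wild type and Y238A in E0771, and reads in the shared bases cannot be told apart without strand information.

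Cacna1f (chrX:7607083-7635196, plus strand) encodes the L-type subunit of photoreceptor synapses. It was at 0 in the 3 AT-3 empty vector libraries and at 1.53, 1.19 and 1.58 CPM with wild type, at least 126-fold higher (adjusted p = 9.81e-07). With Y238A it had 0.0397, 0.06 and 0 CPM, 10 counts in all. That was at least 2.95-fold above empty vector with an adjusted p of 0.0362, a call that was lost in 5 of the 6 analyses that left out a library (0.0696 to 0.118) and with the 4 carry-over libraries left out (0.0774). Wild type exceeded Y238A by 5.36 ± 0.75 (adjusted p = 8.07e-06). In E0771 it stood at 0, 0 and 0.0196 CPM with empty vector, 0.466, 0.224 and 0.19 CPM with wild type and 0 in all 3 Y238A libraries. The wild-type libraries were above the rest by a factor of 46.1 over empty vector (counting interval 12.4 to 387, adjusted p = 0.000608) and of at least 29.1 over Y238A (adjusted p = 0.000188).

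Promoter windows of 300 bases around RefSeq starts (GRCm38.p6) were at hand for 7 of the 10 genes, 10 windows in all, and Cacna1a, Cacna1g and Cacna1h had none. The CArG box, the 10-base element that SRF binds, was searched by its consensus, which reads the same on both strands. It was in 0 of the 10 windows, and in 1.63% of all 32851 windows in the table. With 1 mismatch allowed it was in 5 of the 10 windows, those of Cacna1b, Cacna1f, Cacna1i and 2 of the 3 of Cacna1c, beside 19.9% of all windows. The windows of Cacna1f and Cacna1s, the genes with calls for wild type in both lines that had a window, and those of Cacna1c with a match are printed below 5′ to 3′, as the stretch upstream of the start that no annotated exon covers. Capitals mark a match with 1 mismatch.
Cacna1f, chrX:7606853-7607082, plus strand: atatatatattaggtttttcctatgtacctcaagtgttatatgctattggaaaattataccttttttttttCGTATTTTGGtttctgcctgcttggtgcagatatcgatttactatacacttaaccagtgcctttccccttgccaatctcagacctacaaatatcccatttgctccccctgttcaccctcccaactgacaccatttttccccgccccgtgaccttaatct
Cacna1s, chr1:136052561-136052749, plus strand: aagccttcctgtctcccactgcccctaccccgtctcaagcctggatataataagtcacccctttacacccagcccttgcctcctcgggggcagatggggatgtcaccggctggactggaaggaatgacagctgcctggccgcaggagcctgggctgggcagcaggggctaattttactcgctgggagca
Cacna1c, chr6:119196419-119196659, minus strand: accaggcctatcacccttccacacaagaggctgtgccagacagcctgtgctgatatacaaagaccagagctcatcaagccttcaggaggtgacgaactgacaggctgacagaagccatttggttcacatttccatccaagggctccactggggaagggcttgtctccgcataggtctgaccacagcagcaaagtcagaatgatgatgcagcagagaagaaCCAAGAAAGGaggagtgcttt
Cacna1c, chr6:118757975-118758224, minus strand: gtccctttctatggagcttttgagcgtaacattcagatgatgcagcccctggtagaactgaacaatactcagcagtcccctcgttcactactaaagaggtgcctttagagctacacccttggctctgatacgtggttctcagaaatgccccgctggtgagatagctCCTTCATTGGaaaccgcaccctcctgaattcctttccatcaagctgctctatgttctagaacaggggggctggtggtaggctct
The Cacna1f stretch holds 1 such match, the Cacna1s stretch none, and each Cacna1c stretch 1. A match is a description of letters and not of binding.

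Base composition also varied among the windows. GC content was 43.7% with 5 CpG sites in the Cacna1f window and 63% with 9 in that of Cacna1s, beside all-window medians of 52.7% and 7. The remaining Cacna1c window, at a start between the 2 printed ones, had 81.3% GC and 57 CpG sites, and a Cacna1d window had 87.3% and 63. TATAAA, searched on both strands, was in 1 of the 10 windows, the other Cacna1d window, and in 13.6% of all windows.

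Cacna1c (chr6:118587240-119196418, minus strand) encodes the main L-type channel of heart and smooth muscle. In AT-3 it measured 22.8, 23.1 and 21.2 CPM with empty vector, 34.2, 27.0 and 24.4 CPM with wild type and 9.59, 8.38 and 7.93 CPM with Y238A. The 3 constructs gave levels that did not overlap in AT-3, with Y238A lowest and wild type highest. In E0771 the 9 libraries lay between 18.7 and 23.5 CPM and the constructs overlapped.

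With Y238A, Cacna1c in AT-3 fell by 1.37 ± 0.11 on the log2 scale (adjusted p = 3.25e-09), and wild type exceeded Y238A by 1.73 ± 0.11 (adjusted p = 2.29e-11). The rise with wild type was 0.35 ± 0.11 (adjusted p = 0.00602), and it did not pass with library totals in place of TMM (0.20, adjusted p = 0.104) or without wild-type replicate 1 (0.20, 0.0754) or 2 (0.27, 0.0553). The E0771 values were 0.06, -0.04 and 0.10 for wild type, Y238A and wild type against Y238A (adjusted p = 0.742, 0.878 and 0.546). The difference between the lines, E0771 effect minus AT-3 effect, was 1.33 ± 0.15 for Y238A (adjusted p = 1.76e-06) and -1.62 ± 0.15 for wild type against Y238A (adjusted p = 2.77e-08), and was not called for wild type against empty vector (-0.29, adjusted p = 0.122). Heart markers differed between the lines: Tnnt2, Gata4 and Nkx2-5 of 4 reached 1 CPM in each AT-3 group, with a summed level of 63.9 to 68.7 CPM with empty vector, 140.4 to 148 with wild type and 65.1 to 74.5 with Y238A, beside 1.29 to 2.8 CPM over the E0771 libraries. Their part in the Cacna1c values was not tested.

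Cacna1d (chr14:30039939-30491455, minus strand) encodes an L-type channel that opens at relatively low voltage, known from pacemaker and endocrine cells. In AT-3 it stood at 0.116, 0.0632 and 0.173 CPM with empty vector, 1.36, 1.18 and 0.946 CPM with wild type and 0.119, 0.02 and 0.0839 CPM with Y238A. Only the wild-type group was apart in AT-3, and the E0771 libraries all lay between 0 and 0.122 CPM with overlapping groups. In AT-3 wild type was 3.30 ± 0.69 above empty vector (adjusted p = 0.000276) and 3.94 ± 0.72 above Y238A (adjusted p = 6.61e-05), and in E0771 the values were 0.45 and 1.24 (0.743 and 0.327). The line difference for wild type against empty vector, -2.85 ± 1.05, passed (adjusted p = 0.0307), but not in 8 of the 12 analyses that left out a library it rests on, with an adjusted p of up to 0.222 without E0771 empty vector replicate 3. Chdh, a gene on the opposite strand, shares 589 bases of exon with Cacna1d, and without strand information reads there cannot be told apart. Chdh was at 2.27 ± 0.11, 0.126 ± 0.092 and 3.55 ± 0.92 CPM in AT-3 with empty vector, wild type and Y238A. In E0771, where Cacna1d was low, Chdh was low too, at 0.0211, 0.0159 and 0 CPM. Its part in the Cacna1d values was not tested.

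Cacna1a (chr8:84388440-84640246, plus strand) encodes the P/Q-type pore of nerve terminals and Purkinje cells. In AT-3 it measured 12.5, 11.4 and 11.8 CPM with empty vector, 10.5, 9.83 and 11.3 CPM with wild type and 8.73, 7.63 and 7.51 CPM with Y238A. In E0771 it measured 49.1, 54.5 and 49.1 CPM with empty vector, 51.4, 50.5 and 48.8 CPM with wild type and 36.7, 19.6 and 37.7 CPM with Y238A. The Y238A libraries were the lowest of each line, and every E0771 library was above every AT-3 library.

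Against empty vector, Y238A lowered Cacna1a, with -0.58 ± 0.18 for AT-3 (adjusted p = 0.0151) and -0.70 ± 0.17 for E0771 (adjusted p = 0.0129). The AT-3 call was lost without empty vector replicate 1 (adjusted p = 0.0534) or Y238A replicate 2 or 3 (0.0539 and 0.0587). In E0771 Y238A replicate 2 was the low library, and without it the fall was -0.45 (adjusted p = 0.000193), while with E0771 fitted alone the adjusted p was 0.0648. Wild type exceeded Y238A by 0.68 ± 0.17 in E0771 (adjusted p = 0.00657; 0.43 without Y238A replicate 2), while the AT-3 value of 0.41 fell short of the threshold (adjusted p = 0.0572), though not in DESeq2 (0.0075) or with AT-3 fitted alone (0.000728). Against empty vector, wild type gave -0.18 ± 0.18 in AT-3 (adjusted p = 0.394) and -0.02 in E0771 (0.976). Between the lines with empty vector, Cacna1a was higher in E0771 by 2.10 ± 0.18 (adjusted p = 2.21e-08). Gm16183, an antisense gene, shares 435 bases of exon with Cacna1a (3.81% of the Cacna1a exon length). In AT-3 it was at 0.047 ± 0.035, 3.17 ± 0.39 and 0.076 ± 0.08 CPM with empty vector, wild type and Y238A. Cacna1a had no call there for wild type against empty vector. Reads in the shared bases cannot be told apart without strand information.

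Cacna1b (chr2:24603887-24763152, minus strand) encodes the N-type channel. It had 2, 0 and 0 counts in the AT-3 empty vector libraries, 2, 12 and 10 with wild type and 0, 0 and 2 with Y238A. In E0771 the counts were 2, 6 and 4, then 0, 4 and 0, then 10, 6 and 2. The AT-3 wild-type sum of 24 counts stood at 11.3 times the empty vector level (counting interval 2.8 to 98.5), the groups overlapped in single libraries, and the gene was below the level at which it could be tested.

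Cacna1e (chr1:154390731-154884501, minus strand) encodes the R-type channel. In AT-3 it stood at 0.0463, 0 and 0 CPM with empty vector, 6.01, 5.44 and 5.38 CPM with wild type, and 0.0993, 0.04 and 0 CPM with Y238A. The wild-type libraries were far above the other 6, which overlapped. Wild type was 8.40 ± 0.66 above empty vector (adjusted p = 5.86e-10), at least 330-fold without empty vector replicate 1, and 6.86 ± 0.57 above Y238A (adjusted p = 1.27e-09; 8.01 without Y238A replicate 1). The empty vector group had 4 counts and the Y238A group 14, so both sizes are less certain than their SE.

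In E0771 Cacna1e had 3 counts with empty vector, 19 with wild type and 2 with Y238A. The wild-type libraries, at 0.0538, 0.0815 and 0.0595 CPM, were above the other 6 of that line, which held at most 0.0196 CPM. The ratio was 6.49 over empty vector (counting interval 1.91 to 34.2) and the call was missed in edgeR (adjusted p = 0.0759), but passed in DESeq2 (0.0205). Wild-type replicate 2, the highest, is a carry-over library, and a part of that in its value was not tested. The line difference for wild type against empty vector was -5.85 ± 2.00 (adjusted p = 0.0204), and it was lost without E0771 empty vector replicate 1 (0.0602) or 3 (0.23). Without AT-3 empty vector replicate 1 that group had 0 counts, so the size of this difference is no estimate. Of 4 neuron markers (Rbfox3, Snap25, Syt1, Syp), 0 reached 1 CPM in any group, with a summed level of 0.0495 to 0.105 CPM in AT-3 with empty vector 0.369 to 0.853 with wild type and 0.24 to 0.462 with Y238A. Their part in the Cav2 values was not tested.

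Cacna1g (chr11:94408391-94474198, minus strand) encodes a T-type channel of neurons and pacemaker tissue. In AT-3 it was at 0.439, 0.59 and 0.322 CPM with empty vector, 0.785, 0.749 and 0.664 CPM with wild type and 18.4, 15.6 and 14.96 CPM with Y238A. All 3 Y238A libraries were far above the other 6 of that line. Y238A exceeded empty vector by 5.16 ± 0.51 (adjusted p = 5.03e-07), and wild type was below Y238A by a log2 value of -4.47 ± 0.48 (adjusted p = 5.34e-07). The wild-type libraries lay above the empty vector libraries, with a value of 0.69 that was not called (adjusted p = 0.262). It was called with AT-3 fitted alone (0.00668) and with the 4 carry-over libraries left out (0.046).

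In E0771 Cacna1g was at 0.0385, 0.126 and 0 CPM with empty vector, 0.0359, 0.102 and 0.0238 CPM with wild type and 0, 0.195 and 0.389 CPM with Y238A. The groups overlapped, and replicate 2 was the highest of the empty vector and of the wild-type libraries. Both are carry-over libraries, and a part of carry-over in these values was not tested. Y238A gave 1.78 over empty vector (adjusted p = 0.24). With the 4 carry-over libraries left out it was 3.81 (adjusted p = 0.00286), and without Y238A replicate 1 alone it was 2.42 (adjusted p = 0.0166). Those left out include Y238A replicate 1, at 0 CPM, and empty vector replicate 2, the highest of its group. Their removal in itself raises the Y238A mean and lowers the empty vector mean. The line difference for Y238A did not pass (-3.39, adjusted p = 0.06), but did with the stricter filter (0.0426) and without E0771 empty vector replicate 3 (0.027), Y238A replicate 1 (0.019) or Y238A replicate 3 (0.0142), and it ran from -4.40 to -2.0 on leaving out libraries. With empty vector Cacna1g was lower in E0771 than in AT-3 by a log2 value of -3.06 ± 0.79 (adjusted p = 0.0026), or -4.44 without E0771 empty vector replicate 2.

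Cacna1h (chr17:25374285-25433783, minus strand) encodes the T-type channel of adrenal and sensory cells, among others. It was at 0 in the 3 empty vector and 3 Y238A libraries of AT-3 and at 0.291, 0.507 and 0.27 CPM with wild type. Wild type was at least 30.7-fold above empty vector (adjusted p = 1.44e-05) and at least 34.7-fold above Y238A (adjusted p = 1.13e-05). In E0771 it was at 0.0577, 0.0211 and 0.0196 CPM, then 0.395, 0.153 and 0.333 CPM, then 0.0379, 0.0434 and 0.0687 CPM. Wild type was again above all other libraries of the line, by 3.10 ± 0.73 over empty vector (adjusted p = 0.00489) and 2.53 ± 0.70 over Y238A (adjusted p = 0.0129), the second being lost without wild-type replicate 1 (0.0629), Y238A replicate 1 (0.0638) or Y238A replicate 2 (0.0518).

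The line difference of Cacna1h passed for wild type against empty vector (adjusted p = 0.0167) and against Y238A (adjusted p = 0.00618), but rests on AT-3 groups at 0, so its size is not an estimate, and the first was lost without E0771 empty vector replicate 1 (0.0506). With empty vector it was at least 2.9-fold higher in E0771 than in AT-3 (adjusted p = 0.00854), from 10 counts. Tpsg1, on the opposite strand, shares 158 bases of exon with Cacna1h, and had 1 count with empty vector, 59 with wild type and 0 with Y238A in AT-3, beside 0, 12 and 0 in E0771. Reads in the shared bases cannot be told apart without strand information.

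Cacna1i (chr15:80287238-80398279, plus strand) encodes a T-type channel of thalamic neurons. It ranged from 0.099 to 0.3 CPM over the 9 AT-3 libraries and from 0.226 to 0.933 CPM over the 9 E0771 libraries. The groups overlapped within each line, except that the Y238A libraries of AT-3 (0.189 to 0.3 CPM) lay above its empty vector libraries (0.099 to 0.162 CPM). That difference was 0.94 (adjusted p = 0.149), and 0 of its 6 comparisons between constructs passed. With empty vector it was higher in E0771 by 2.10 ± 0.49 (adjusted p = 0.000733), and the libraries of the 2 lines did not overlap.

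Between the lines with empty vector, 3 of the 9 genes tested (Cacna1a, Cacna1h, Cacna1i) were higher in E0771 (35.2% of all genes) and 1 (Cacna1g) was lower (36.8%). The line difference of the wild-type effect was negative with a call for 3 genes (24% of all genes) and positive for 0 (23.3%). That of the Y238A effect was positive for 1 (12.2%) and negative for 0 (13.6%), and that of wild type against Y238A negative for 2 (22.7%) and positive for 0 (22.9%). Cacna1f and Cacna1s, which rose with wild type in both lines, had no call for a line difference of that effect. The construct was lower in E0771 than in AT-3, so line and construct level cannot be told apart in the line differences.

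Other genes followed some of the 6 alpha-1 genes that reached 1 CPM in a group. By Pearson's r of log2 CPM over 18 libraries among 11612 genes, those nearest to Cacna1a were Ccne1 (0.986), Ubtd2 (0.982) and Nop9 (0.982), and those nearest to Cacna1c were Zeb2 (0.941), Cdca8 (0.939) and Get4 (0.932). For Cacna1d they were Cep135 (0.934), Hist1h4a (0.931) and Impa1 (0.928), and for Cacna1e Spag17 (0.984), Fbxl22 (0.98) and Npffr2 (0.979). For Cacna1f they were Mfsd7a (0.979), Fcrl1 (0.977) and Gsdmc (0.975), and for Cacna1g Brox (0.948), Deptor (0.948) and Ier3 (0.945). The 18 points fall in 6 groups and share depth and line, so r describes a likeness of pattern and carries no p.

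Of 17 accessory subunit genes, 10 could be tested, and Cacna2d3, Cacna2d4, Cacng1, Cacng2, Cacng3, Cacng5 and Cacng6 were too low. In AT-3 wild-type MRTFA raised 3 and lowered 2 of them (36.4% and 32.2% of all genes), Y238A raised 2 and lowered 2 (21.4% and 22.2%), and wild type was higher than Y238A in 2 and lower in 3 (34.8% and 31.4%). The matching counts in E0771 were 2 and 0 (11.2% and 13.3%), 0 and 0 (5.41% and 6.64%), and 1 and 0 (12.7% and 13%). Their median log2 fold change was 0.53, -0.15 and 0.59 in AT-3 and -0.07, 0.73 and -0.22 in E0771, the E0771 Y238A median being 0.43 with Cacng4, at 0 counts with empty vector, set to its bound.

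The beta subunits carry alpha-1 subunits to the membrane and set their gating. Cacnb3 was the most abundant per kb, at 53.8 ± 1.4 CPM per kb in AT-3 with empty vector, and measured 211, 214 and 222 CPM there, 63.7, 67.4 and 69.3 CPM with wild type and 188, 192 and 191 CPM with Y238A. With wild type Cacnb3 fell by 1.69 ± 0.14 (adjusted p = 4.79e-08), against a Y238A value of -0.18 that did not pass (adjusted p = 0.311). Cacnb1, the skeletal muscle beta subunit, moved the other way in AT-3, with 2.71, 2.52 and 3.16 CPM, then 9.24, 8.27 and 7.86 CPM, then 1.63, 0.92 and 1.32 CPM. It rose by 1.60 ± 0.18 with wild type (adjusted p = 8.9e-08) and fell by 1.11 ± 0.19 with Y238A (adjusted p = 6.07e-05), with 3 groups that did not overlap. In E0771 Cacnb1 was 0.63 ± 0.17 higher with wild type than with Y238A (adjusted p = 0.00848; 0.0544 without wild-type replicate 1).

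Cacnb4 rose with wild type in AT-3 from 0.418 ± 0.069 to 1.51 ± 0.36 CPM (1.85 ± 0.50, adjusted p = 0.00248) and stood at 0.151 ± 0.049 CPM with Y238A (-1.45 ± 0.54, adjusted p = 0.0333, up to 0.106 without a library). In E0771 wild type raised Cacnb4 and Cacnb2, both under 0.15 CPM in every library of that line. The Cacnb2 ratio was 10.8 (counting interval 2.63 to 94.7, adjusted p = 0.006). The Cacnb4 value was 2.86 (adjusted p = 0.014), and its call was lost without empty vector replicate 1 (0.0605) or wild-type replicate 2 (0.0511). With the 4 carry-over libraries left out neither was called (0.0797 and 0.0827). With empty vector Cacnb2 was at 2.82 ± 0.38 CPM in AT-3 and had 2 counts in E0771.

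**Figure D4:**
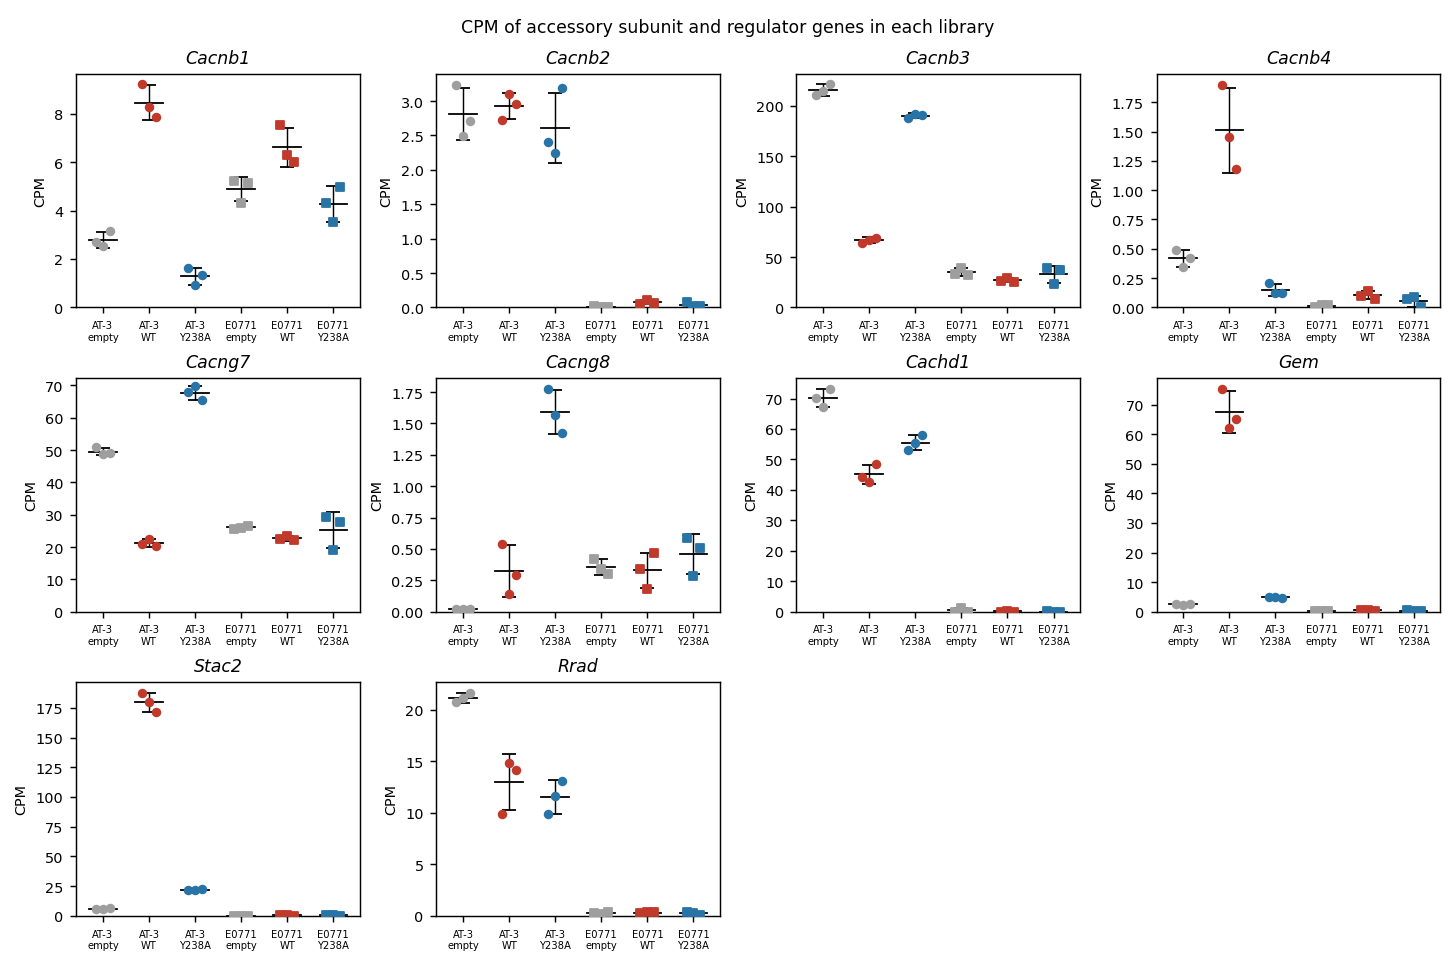
CPM (linear axes with a different range in each panel) of 7 accessory subunit genes and of Gem, Stac2 and Rrad, 3 regulators of the channels. Points are the 3 libraries of a group (circles AT-3, squares E0771), long lines are group means and bars are SD. Among the AT-3 groups, Cacnb3 and Cacng7 are lowest with wild type, while Gem and Stac2 are highest with it. Cacnb3 is lower still in every E0771 group, and Cachd1 is near 0 in E0771.

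The gamma subunit genes Cacng7 and Cacng8, whose products are better known as partners of AMPA receptors, gave further differences. Cacng7 measured 49.5 ± 1.1, 21.2 ± 1.1 and 67.7 ± 2.1 CPM in AT-3 with empty vector, wild type and Y238A, a fall of -1.22 ± 0.10 with wild type (adjusted p = 2.45e-09) and a rise of 0.45 ± 0.10 with Y238A (adjusted p = 0.000973). Cacng8 rose from 0.023 ± 0.0018 to 0.325 ± 0.2 CPM with wild type (3.77 ± 0.63, adjusted p = 2.11e-05) and to 1.59 ± 0.18 CPM with Y238A (6.04 ± 0.59, adjusted p = 5.06e-08). It was highest in AT-3 with Y238A, as was Cacna1g.

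Of the alpha2delta genes, which aid surface expression of Cav1 and Cav2 channels, Cacna2d1 and Cacna2d2 had group means of at most 0.343 CPM and no call in any comparison between constructs. Cachd1, an alpha2delta-like gene, was at 70.2 ± 2.9, 45.1 ± 3 and 55.5 ± 2.5 CPM in AT-3 with the 3 constructs, with no call for wild type or Y238A against empty vector (-0.64 ± 0.40 and -0.34 ± 0.40, adjusted p = 0.172 and 0.54). In E0771 it was at 0.42 ± 0.69 CPM with empty vector, nearly all of it in replicate 2, and it was lower there than in AT-3 by a log2 value of -7.44 ± 0.61 (adjusted p = 1.04e-07), -11.7 without that replicate. With empty vector 2 accessory genes (Cacng8, Cacnb1) were higher in E0771 (35.2% of all genes) and 6 (Cacnb2, Cacnb3, Cacnb4, Cacng4, Cacng7, Cachd1) lower (36.8%).

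Of 22 cytoplasmic regulators of the channels or of calcium signals, 19 were tested. In AT-3 wild type raised 7 and lowered 8 (36.4% and 32.2% of all genes), Y238A raised 5 and lowered 3 (21.4% and 22.2%), and wild type was higher than Y238A in 6 and lower in 6 (34.8% and 31.4%). In E0771 these counts were 5 and 2 (11.2% and 13.3%), 1 and 2 (5.41% and 6.64%), and 3 and 2 (12.7% and 13%). With the 4 carry-over libraries left out, 1 of the 7 wild-type calls and 2 of the 3 Y238A calls of E0771 were lost. The medians over the list ran from -0.04 to 0.38. Gem, an RGK protein that binds beta subunits and blocks calcium currents, measured 2.69, 2.34 and 2.65 CPM in AT-3 with empty vector, 75.3, 62.1 and 65.0 CPM with wild type and 5.003, 5.08 and 4.49 CPM with Y238A. It rose by 4.72 ± 0.14 with wild type (adjusted p = 2.19e-16) and by 0.93 ± 0.14 with Y238A (adjusted p = 1.26e-05), with no overlap of the 3 groups. In E0771 it stayed under 0.7 CPM, with 1.32 ± 0.26 for wild type (adjusted p = 0.000819) and 0.86 ± 0.28 for Y238A (0.0499). The Y238A call was lost with the replicate block (0.0533), with E0771 fitted alone (0.211), with the 4 carry-over libraries left out (0.257) and without any single library of its groups but Y238A replicate 2 (0.0856 to 0.232).

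Calcineurin subunits and a calmodulin kinase also differed. The catalytic calcineurin genes Ppp3ca and Ppp3cb were lower with wild type in AT-3, at -0.98 ± 0.06 and -1.01 ± 0.06 (adjusted p = 9.96e-12 and 1.05e-11), and Ppp3ca fell by 0.28 ± 0.06 in E0771 (0.00141). Camk2g rose with wild type in both lines, by 0.68 ± 0.05 in AT-3 (adjusted p = 4.66e-11) and 0.63 ± 0.05 in E0771 (1.77e-09). Stac2, an adaptor that holds L-type channels open, was among the 4 smallest p-values for Y238A in AT-3, at 21.9 ± 0.48 beside 6.01 ± 0.49 CPM (1.87 ± 0.27, adjusted p = 6.51e-05), and was at 180 ± 7.8 CPM with wild type.

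Of 12 transcription factors and coactivators that calcium entry can activate, all tested, wild type raised 3 and lowered 7 in AT-3 (36.4% and 32.2% of all genes), Y238A raised 2 and lowered 3 (21.4% and 22.2%), and wild type was higher than Y238A in 6 and lower in 5 (34.8% and 31.4%). The E0771 counts were 1 and 2 (11.2% and 13.3%), 1 and 0 (5.41% and 6.64%), and 1 and 3 (12.7% and 13%), of which 3 of 3, 1 of 1 and 3 of 4 calls were lost with the 4 carry-over libraries left out. The medians over the list ran from -0.27 to 0.04. The NFAT gene Nfatc2 moved in opposite directions in AT-3, with 3.25 ± 0.33 CPM with empty vector, 0.748 ± 0.1 with wild type (-2.11 ± 0.15, adjusted p = 1.45e-10) and 9.37 ± 0.43 with Y238A (1.53 ± 0.13, 1.16e-08). Mef2a rose with wild type in both lines, by 0.98 ± 0.06 in AT-3 (adjusted p = 5.04e-12) and 0.22 ± 0.06 in E0771 (0.00713), the latter not called with the 4 carry-over libraries left out (0.109). The coactivator Crtc1 fell in AT-3 by 1.17 ± 0.07 (2.1e-11).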

How the data were processed

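RNA of 18 libraries, 3 in each of 6 groups, was sequenced after poly(A) selection with a commercial mRNA kit, per the labels. The authors' deposited table holds raw counts per gene in 32286 entries, and reads were aligned with STAR to GRCm38 and counted with featureCounts, per the submitters' processing notes. The annotation release, the strandedness and the origin of the MRTFA entry are not given in the sources used here.

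With edgeR 4.0.16 in R 4.3.3, low genes were dropped with filterByExpr (grouped, count of at least 10, total of at least 15) and the counts scaled by TMM. One mean per group was fitted over all libraries (12 residual degrees of freedom) for a robust quasi-likelihood F test, with Benjamini-Hochberg adjustment over 17841 genes and a threshold of 0.05. A line difference subtracts the effect in AT-3 from that in E0771. A run on counts simulated from the fitted model, with few genes changed in a single group, checked the code only. It gives no error rate for these data, in which far more genes were called. Exon lengths and overlaps came from GENCODE M21 (GRCm38), promoter windows from RefSeq (GRCm38.p6).

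All 10 members are named, with the construct and Srf as checks, every accessory subunit, and of the other lists up to 4 members per comparison by smallest p. Stac2 with wild type, Chdh, Tpsg1, Gm16183 and Gm37759 were named after their values were seen. The members, the lists and the 4 carry-over libraries were chosen with earlier results of these data known. Like genes are the 3 of highest r over log2 CPM (prior count 2) with a mean of at least 1 CPM.

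Replicate numbers come from the sample titles. Same-numbered libraries deviated together in E0771 wild type against empty vector (correlations 0.42 to 0.69). The labels do not say that a number marks a pair. Replicate 2 of both these groups is a carry-over library, whose part in the correlations was not tested. In each of the other comparisons the lowest correlation was at most 0.0053. Results were recomputed with DESeq2 1.42.0, with DESeq2's size factors or plain library totals in edgeR, without a filter, with a filter of 1 CPM in 3 libraries with a mean of 50 counts, for each line alone, with a replicate block, with the 4 carry-over libraries left out and with single libraries left out.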

Additional observations from a re-analysis of the deposited data

Results flagged for a closer look

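Line differences (E0771 effect minus AT-3 effect, log2, edgeR's quasi-likelihood test with Benjamini-Hochberg adjustment, n = 3 libraries per group) passed for 4 of the 9 genes tested, in an analysis in which 24% and 23.3% of all genes had a negative and a positive one for wild type against empty vector, 13.6% and 12.2% for Y238A, and 22.7% and 22.9% for wild type against Y238A. Cacna1c was the best measured, with counts in all 18 libraries: the difference was 1.33 for Y238A against empty vector (adjusted p = 1.76e-06) and -1.62 for wild type against Y238A (adjusted p = 2.77e-08), with the 3 AT-3 groups apart and the E0771 groups overlapping. Cacna1e gave -5.85 for wild type against empty vector (adjusted p = 0.0204), Cacna1d gave -2.85 (0.0307) and Cacna1h gave -4.99 (0.0167), each resting on groups with few counts and each lost on leaving out at least 1 library. Cacna1h also gave -5.55 for wild type against Y238A (adjusted p = 0.00618), with 0 counts in AT-3 with Y238A. These are fitted values, and those of Cacna1e and Cacna1h depend on the model's prior count. Construct RNA was lower in E0771 than in AT-3, so line and construct level cannot be told apart here.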

How the results depend on the processing

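Leaving out each library in turn left 5 to 6 members called for wild type in AT-3, 3 to 4 for Y238A and 1 to 2 for Y238A in E0771, and for the line differences 1 to 3 (wild type), 1 to 2 (Y238A) and 2 to 4 (wild type against Y238A). The stricter filter tested only 4 members, so its counts cannot be set beside those out of 9. It called 2 for AT-3 wild type against empty vector (10112 over all genes) and 4, all those tested, against Y238A (9941). In the 3 E0771 comparisons it called 0, 1 and 1 (3539, 2174 and 4450), and between lines with empty vector 2 (10944). For the line differences it called 1, 2 and 1 (8007, 4972 and 7657). DESeq2 called 2 and 4 of 9 for the line differences of Y238A and of wild type against Y238A (5491 and 8711 over all genes). E0771 fitted alone, with 7 members tested, called 1 for Y238A (1842 over all genes). Cacna1d, Cacna1e, Cacna1f, Cacna1h and Cacna1s in AT-3, and Cacna1f, Cacna1h and Cacna1s in E0771, passed with wild type against empty vector in all leave-one-out analyses.

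The replicate block gave 3 called members in E0771 wild type against empty vector, as without it. There same-numbered libraries deviated together. Elsewhere their correlations ran from -0.42 to 0.47, and the block made the Cacna1c line difference for wild type a call (-0.28, adjusted p = 0.0318).

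Among the alpha-1 genes, signs turned only where no call was made. Cacna1c between lines was 0.0055 with library totals, and the Cacna1i line difference for wild type against Y238A was 0.0033 with library totals and -0.39 to 0.28 leaving out libraries. For wild type in E0771, Cacna1a was 0.046 (stricter filter), 0.031 (line alone), 0.029 (4 libraries out) and -0.045 to 0.030 leaving out each, Cacna1d was -0.14 (4 libraries out), Cacna1g -0.78 to 1.43 and Cacna1i -0.12 to 0.55. For Y238A in E0771, Cacna1c was -0.10 to 0.020 and Cacna1d -2.30 to 0.16. Line differences for Y238A were -0.28 to 0.12 (Cacna1a), -1.66 to 0.79 (Cacna1d) and -1.84 to 3.12 (Cacna1s), and for wild type -1.48 to 0.73 (Cacna1g) and -3.34 to 1.62 (Cacna1s). The cause was not tested.

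Over all genes, the calls for wild type in E0771 went from 4364 to 2762 and for Y238A from 2149 to 843 without the 4 libraries, and to 1251 without E0771 empty vector replicate 2. Library totals moved the all-gene median by -0.139 for wild type in AT-3 and -0.16 against Y238A, and turned the split of E0771 Y238A calls from 965 higher and 1184 lower to 1176 and 817. Members under about 1 CPM rest on few read pairs.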
